A study of Mus musculus with 14 samples.

Results

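The 10 genes described here form the core of transforming growth factor beta (TGF-beta) signalling: the ligand genes Tgfb1, Tgfb2 and Tgfb3, the activin A subunit gene Inhba, the latency gene Ltbp1, the receptor genes Tgfbr1, Tgfbr2 and Tgfbr3, the signal transducer Smad3 and the inhibitor Smad7. They were taken by symbol from a count table of 32926 genes, and all 10 were present. The 14 RNA libraries, made from poly(A) transcripts of mouse small cell lung cancer lines, fall into 6 groups. The groups were Non-NE cells (n = 3 libraries), neuroendocrine (NE) cells (n = 3), and cells with a Tet-on YAP5SA transgene at days 0, 3, 7 and 21 (n = 2 each). The comparison of Non-NE with NE cells asks how the cell states differ, and the day course asks how far forced YAP activity moves cells between them.

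By their labels all lines came from lung tumours of adult mice of mixed strain that carried CGRPCreER/+;Rb f/f;P53 f/f, among other alleles, and were injected with TM (a time of 2 months is given), and all were grown in Hites medium. CGRPCreER is a Cre recombinase expressed from the locus of a neuroendocrine peptide, so deletion of Rb1 and Trp53 was directed to neuroendocrine cells in every group, NE cells and day 0 included. The YAP5SA libraries add Rosa26rtTA;Tet-onYAP5SA, a transactivator and an inducible YAP whose inhibitory phosphorylation sites are mutated. The label of YAP5SA day 0 replicate 1 lists no transgene, and in the genotype field of this library and of the NE and Non-NE libraries the number after "P" counts up from sample to sample, with P53 kept in the source field. No inducing agent is named, no library without the transgene at days 3, 7 or 21 was analysed here, and nothing states that libraries of a group came from separate cultures, so p-values measure the spread between these libraries, which may be technical.

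TGF-beta ligands are secreted bound to a latency peptide that LTBP proteins tether to the matrix, and integrins or proteases release them. Free ligand joins the type II receptor TGFBR2, which phosphorylates the type I receptor TGFBR1, and that kinase in turn phosphorylates SMAD2 and SMAD3. Activin A, a dimer of INHBA chains, reaches the same SMADs through activin receptors. SMAD7 is a target gene that feeds back by blocking the type I receptor. In epithelial tumours the pathway is known for growth arrest and for the change to a mesenchymal form.

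Library totals ran from 6730816 to 10659524 counts. Levels are given as CPM, a gene's count as a share of the library's total after scaling by TMM over the 14 libraries, as mean ± SD where a group is summarised. "Called" means an adjusted p under 0.05 in edgeR's quasi-likelihood test with Benjamini-Hochberg adjustment over all genes tested. Of the libraries, 2 were not independent. In all 32926 genes the count of NE replicate 2 was at or below that of YAP5SA day 0 replicate 1, with 85.7% of its reads. A chi-square per gene of 1.03 over 12673 genes is what a random draw from the same reads gives, so NE replicate 2 was left out wherever both sets were compared, and member results and list counts on NE or day 0 cells are given with and without the library concerned. Of the calls printed below for other list genes in Non-NE against NE cells or against day 0, only that of Pmepa1 in Non-NE cells was lost without it. Yap1 itself stood at 135, 257 and 226 CPM in Non-NE cells and 19.2, 8.20 and 11.6 CPM in NE cells. In the transgenic line Yap1 averaged 7.50 ± 0.53 CPM at day 0, 1148 ± 120.1 at day 3, 763 ± 42 at day 7 and 213 ± 8.0 at day 21 (SD, n = 2 each), and these counts may include reads of the transgene.

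Most of the pathway was higher in Non-NE cells than in NE cells. Of the 10 members, 7 were called higher, 0 were called lower and 3 had no call, where 42.8% of the 12966 genes tested were called, 20.0% higher and 22.8% lower. At an unadjusted p under 0.05, 8 members were higher and 0 lower, and DESeq2 and limma-voom also called 8 higher and 0 lower. The median log2 change was 4.05 over the members and -0.02 over all genes tested. The members divided into genes near the detection floor in NE cells (Tgfb2, Inhba, Ltbp1 and Tgfbr2), genes present in both states with every Non-NE library above every NE library (Tgfb1, Tgfb3, Smad3 and Smad7) and genes with overlapping levels (Tgfbr1 and Tgfbr3). A member near 0 in NE cells passed the count filter through its Non-NE level alone, so its direction was fixed once it was tested. In bulk RNA, fewer cells expressing a gene and less RNA per cell cannot be told apart.

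**Figure D1:**
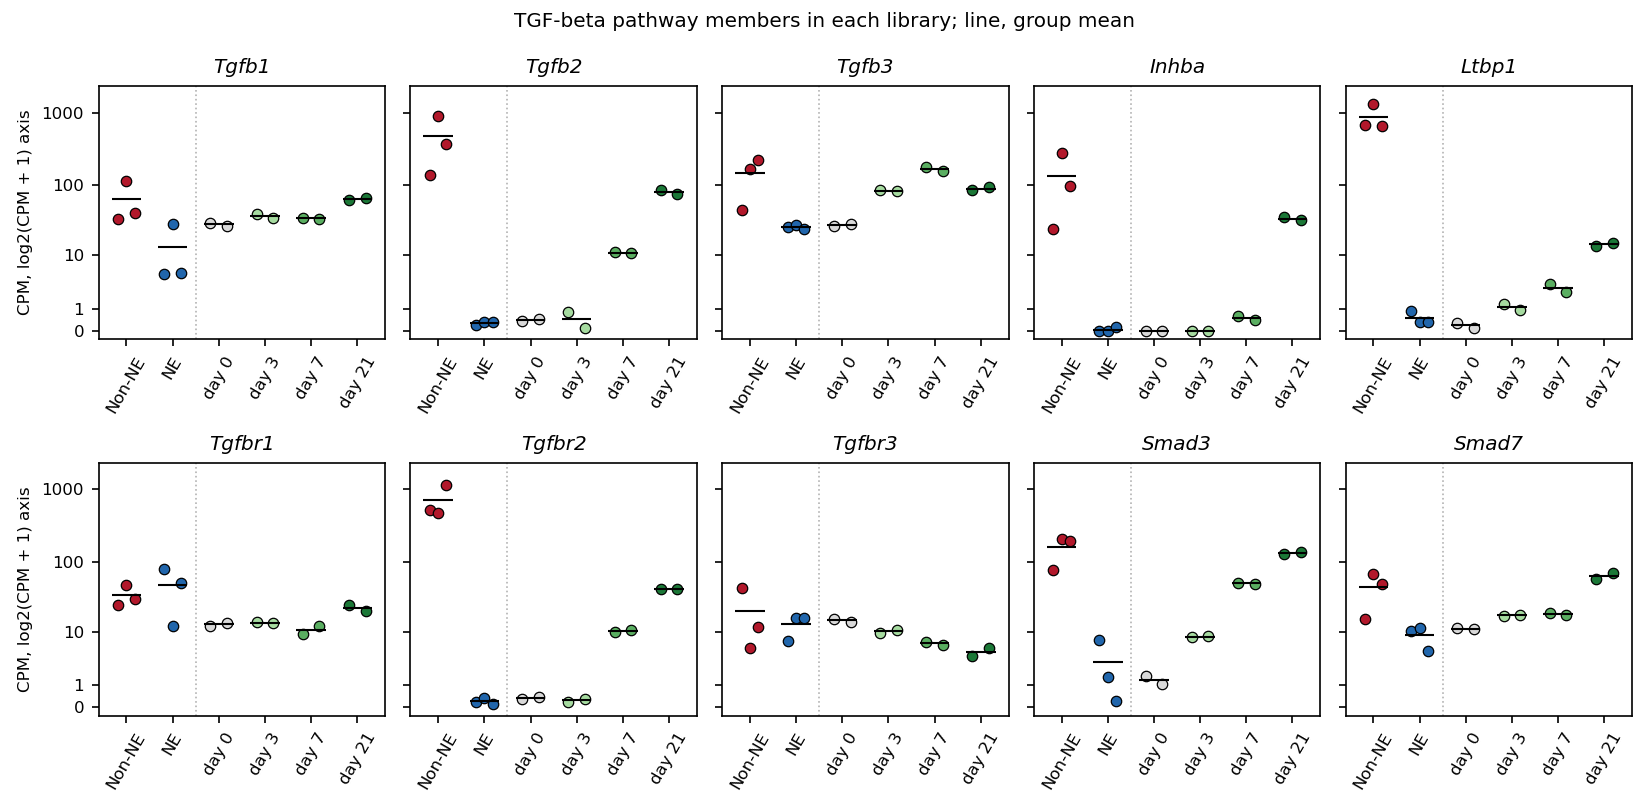
Level of each member in each library, in CPM on a log2(CPM + 1) axis, by group; points are libraries and lines are group means. Tgfb2, Inhba, Ltbp1 and Tgfbr2 lie near 0 in NE cells and at days 0 and 3, are high in Non-NE cells, and at day 21 reach levels whose means are all below those of Non-NE cells.

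Among the TGF-beta isoforms, Tgfb2 showed the widest gap between states. TGFB2 is the isoform best known from development and mesenchymal tissue. Its level was 140, 912 and 373 CPM in the 3 Non-NE libraries and 0.193, 0.328 and 0.320 CPM in the 3 NE libraries. Every Non-NE library lay far above every NE library, which held 2 or 3 reads each, and the log2 change was 10.63 ± 0.99 (SE, adjusted p = 0.000341). Tgfb3, the isoform known for its part in palate and lung development, stood at 44.5, 166 and 226 CPM in Non-NE cells and 25.7, 27.2 and 23.8 CPM in NE cells. The groups did not overlap, although Non-NE replicate 1 was close to the NE range, and the log2 change was 2.48 ± 0.56 (SE, adjusted p = 0.0121).

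Tgfb1, the isoform of immune and stromal cells, had 33.7, 116 and 41.3 CPM in Non-NE libraries and 5.12, 28.9 and 5.22 CPM in NE libraries. The highest NE value came from replicate 2, the library with reads in common with day 0, and it lay just under the lowest Non-NE library. With it the log2 change was 2.24 ± 0.84 (SE) with no call (adjusted p = 0.0710). Without it the log2 change was 3.60 ± 0.67 (adjusted p = 0.0117). DESeq2 and limma-voom called Tgfb1 higher with all 6 libraries (adjusted p = 0.0132 and 0.0319).

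Inhba was all but absent from NE cells. It had 24.3, 283 and 97.8 CPM in Non-NE libraries, against 0, 0 and 0.107 CPM in NE libraries, where the whole group held 1 read. The ratio of the pooled levels was 4129, with a 95% counting interval of 741 to 163143, and edgeR called it higher (adjusted p = 0.00124). Ltbp1, whose product anchors latent TGF-beta in the matrix, had 686, 1309 and 665 CPM in Non-NE libraries and 0.869, 0.328 and 0.320 CPM in NE libraries. No library of one state came near the other, and the log2 change was 10.67 ± 0.58 (SE, adjusted p = 4.47e-05).

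The 3 receptors differed in kind. Tgfbr2, the ligand-binding type II kinase, had 520, 478 and 1153 CPM in Non-NE libraries and 0.193, 0.328 and 0.107 CPM in NE libraries. No library of one state came near the other, and the log2 change was 11.62 ± 0.65 (SE, adjusted p = 5.01e-05), with 1 to 3 reads in each NE library. Tgfbr1, the type I kinase, was present in both states, with 25.0, 47.3 and 30.3 CPM in Non-NE libraries and 79.4, 12.2 and 49.98 CPM in NE libraries. The NE libraries lay on both sides of the Non-NE range. The log2 change was -0.50 ± 0.62 (SE, adjusted p = 0.545), -0.94 ± 0.36 without NE replicate 2 (adjusted p = 0.0964) and 0.11 without NE replicate 1 (adjusted p = 0.912).

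Tgfbr3, betaglycan, a co-receptor that presents TGFB2 to TGFBR2, had 42.3, 5.50 and 11.9 CPM in Non-NE libraries and 7.24, 16.0 and 15.8 CPM in NE libraries. The groups overlapped, and Non-NE replicate 1 alone set the sign. The log2 change was 0.55 ± 0.74 (SE, adjusted p = 0.579) with it and -0.60 without it (adjusted p = 0.424). Per kb of exon, the ratio of Tgfbr2 to Tgfbr1 was 16.6, 8.08 and 30.4 in Non-NE libraries and 0.00194, 0.0214 and 0.00170 in NE libraries. The type II receptor transcript was therefore the more abundant of the pair in every Non-NE library and the rarer in every NE library.

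Smad3, the transducer, had 77.7, 208 and 194 CPM in Non-NE libraries and 7.53, 1.64 and 0.213 CPM in NE libraries. The NE libraries ranged widely but all lay below the lowest Non-NE library, with a log2 change of 5.62 ± 1.06 (SE, adjusted p = 0.00569). Smad7 had 15.4, 66.7 and 48.7 CPM in Non-NE libraries and 10.3, 11.4 and 5.01 CPM in NE libraries. The groups did not overlap, but Non-NE replicate 1 was within 1.5 times of the highest NE library. The log2 change was 2.25 ± 0.59 (SE, adjusted p = 0.0212), and the call was lost without NE replicate 1, NE replicate 3, Non-NE replicate 2 or Non-NE replicate 3, at adjusted p of 0.0560 to 0.0626.

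Without NE replicate 2, all 7 called members kept their call, with adjusted p of 0.000578 to 0.0445, and Tgfb1 joined them. Markers of other cell types moved with the groups. The 8 fibroblast markers summed to 7213 to 17263 CPM in Non-NE libraries, with Thy1 at 0, and 2.90 to 7.44 CPM in NE libraries, with Lum at 0. The 4 epithelial markers summed to 4.96 to 31.3 CPM in Non-NE libraries and 2124 to 2974 CPM in NE libraries. The 6 neuroendocrine markers summed to 58.7 to 413 CPM in Non-NE libraries and 2283 to 3596 CPM in NE libraries, with Calca at 0 in both. The part of these marker genes in the difference was not tested. The 6 macrophage and blood markers summed to 6.45 to 10.72 CPM in Non-NE libraries and 4.58 to 42.1 CPM in NE libraries, with Emr1 (the table's symbol for Adgre1) at 0 in both.

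**Figure D2:**
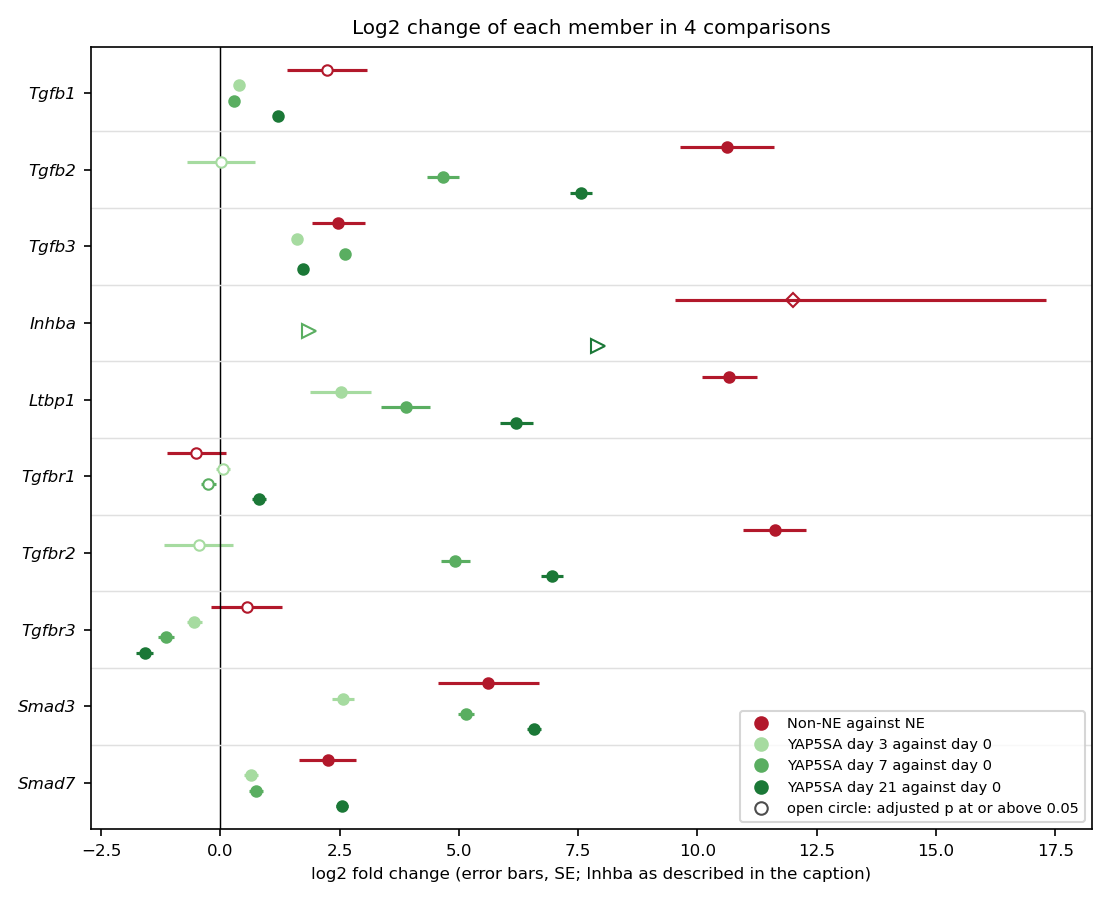
Log2 change of each member for Non-NE against NE cells and for YAP5SA days 3, 7 and 21 against day 0; circles with bars are fitted changes ± SE and open circles have no call. For Inhba the diamond is the ratio of pooled levels with its 95% counting interval, and the right-pointing triangles are lower bounds against a day 0 group with 0 counts. Tgfbr3 lies below 0 at every day while Smad3, Ltbp1 and Smad7 lie above it.

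In the YAP5SA line the members were called in steps. At day 3, 5 members were called higher and 1 lower than at day 0, where 48.6% of the 13996 genes tested were called, 26.2% higher and 22.4% lower. At day 7, 8 were higher and 1 lower, beside 37.2% and 33.8% of all genes (71.0% called). At day 21, 9 were higher and 1 lower, beside 37.7% and 34.0% of all genes (71.7% called). Tgfb2, Inhba, Ltbp1 and Tgfbr2 had 9, 0, 4 and 7 reads over the day 0 group and passed the count filter through later days alone. A fall from day 0 could hardly be called for them, which bears on these counts and on the medians. The median log2 change of the members was 0.22, 3.25 and 4.38 at days 3, 7 and 21, against 0.01, 0.03 and 0.02 over all genes. With Inhba set at its lower bound, the median at day 7 was 2.24. Since the pair of libraries at each time was close (biological coefficient of variation 0.0548), small changes were called. In the fit of Non-NE and NE cells this coefficient was 0.399. With the spread shared over all 14 libraries 0, 5 and 7 members were called at days 3, 7 and 21 (3, 5 and 7 at an unadjusted p under 0.05), where 1041, 4589 and 4586 of 14829 genes were called.

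The genes that led at day 3 were Smad3, Tgfb3 and Ltbp1. Smad3 had 1.69 and 1.11 CPM at day 0, 8.16 and 8.64 at day 3, 50.7 and 48.8 at day 7, and 128 and 136 CPM at day 21. Each time lay above the one before it with no overlap. The log2 change against day 0 was 2.57 ± 0.23, 5.15 ± 0.17 and 6.57 ± 0.15 at days 3, 7 and 21 (SE, adjusted p = 8.59e-10, 3.32e-19 and 2.11e-22). Ltbp1 had 0.281 and 0.0925 CPM at day 0, 1.36 and 0.919 at day 3, 3.35 and 2.44 at day 7, and 13.5 and 15.3 CPM at day 21. It also rose at every step, with log2 changes of 2.52 ± 0.63, 3.89 ± 0.51 and 6.21 ± 0.35 against day 0 (SE, adjusted p = 0.00179, 2.47e-07 and 3.24e-14), from a base of 4 reads.

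Tgfb3 was called higher at the first steps of the course and lower at the last. It had 26.3 and 28.6 CPM at day 0, 86.3 and 82.4 at day 3, 178 and 157 at day 7, and 86.0 and 93.0 CPM at day 21. Day 7 was above every other time, and day 21 was back in reach of day 3. Tgfb3 was higher than at day 0 at each time, by a log2 change of 1.61 ± 0.09, 2.62 ± 0.09 and 1.72 ± 0.09 (SE, adjusted p = 2.50e-13, 1.37e-18 and 1.23e-14). Between days 7 and 21 it fell by 0.89 on the log2 scale (SE 0.08, adjusted p = 1.30e-09), a call lost with the spread shared over 14 libraries (adjusted p = 0.405). With library totals alone, Tgfb1 and Tgfbr1 were called lower at day 7 than at day 3 (adjusted p = 0.0462 and 0.0192). With TMM scaling, 8 members were called higher and 1 lower at day 21 against day 7, beside 26.1% and 24.2% of all genes (50.3% called). For day 7 against day 3 the counts with TMM were 6 and 1, beside 29.5% and 26.1% (55.6% called).

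Tgfb2 and Tgfbr2 rose together after day 3. Tgfb2 had 0.375 and 0.463 CPM at day 0, 0.777 and 0.0919 at day 3, 10.98 and 10.8 at day 7, and 86.1 and 74.5 CPM at day 21. Days 0 and 3 overlapped, at 1 to 8 reads a library, and the log2 change was 0.01 ± 0.72 at day 3 (SE, adjusted p = 1.00), 4.67 ± 0.34 at day 7 (adjusted p = 4.74e-12) and 7.56 ± 0.23 at day 21 (adjusted p = 9.97e-20). Tgfbr2 had 0.281 and 0.370 CPM at day 0, 0.194 and 0.276 at day 3, 9.76 and 10.6 at day 7, and 41.4 and 41.3 CPM at day 21. It had no call at day 3 (log2 change -0.46 ± 0.73, SE, adjusted p = 0.671) and was higher at day 7 by 4.92 ± 0.31 (adjusted p = 2.34e-13) and at day 21 by 6.96 ± 0.23 (adjusted p = 6.02e-19). Between days 7 and 21 Tgfb2 rose by a further 2.89 ± 0.13 and Tgfbr2 by 2.03 ± 0.13 on the log2 scale (SE, adjusted p = 5.41e-15 and 1.74e-12).

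Inhba came last. It was at 0 counts in both libraries at day 0 and both at day 3, had 0.610 and 0.407 CPM at day 7, from 6 and 4 reads, and 35.2 and 32.4 CPM at day 21. Against a floor of 3 counts over the day 0 group, Inhba was at least 3.64-fold higher at day 7 and at least 242-fold higher at day 21 (adjusted p = 0.00115 and 5.48e-17). Nearly all of its rise thus fell between days 7 and 21.

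Smad7 had 11.25 and 10.8 CPM at day 0, 17.3 and 17.4 at day 3, 18.9 and 17.8 at day 7, and 57.6 and 70.1 CPM at day 21. It stepped up by day 3, held through day 7 and stepped up again. The log2 change was 0.64 ± 0.14 at day 3 and 2.55 ± 0.12 at day 21 against day 0 (SE, adjusted p = 0.000429 and 4.91e-16), and 0.11 ± 0.13 at day 7 against day 3 (adjusted p = 0.508). Tgfb1 had 29.3 and 26.9 CPM at day 0, 39.4 and 35.0 at day 3, 35.0 and 33.2 at day 7, and 62.5 and 66.3 CPM at day 21. Its log2 change was 0.39 ± 0.10, 0.29 ± 0.10 and 1.22 ± 0.10 against day 0 (SE, adjusted p = 0.00262, 0.0165 and 3.61e-11). The day 7 call of Tgfb1 was lost when counts were scaled by library totals only (log2 change 0.09, adjusted p = 0.468) and without day 0 replicate 2 (0.23, adjusted p = 0.145) or day 7 replicate 1 (0.25, adjusted p = 0.112), and its day 3 call without day 0 replicate 2 (0.33, adjusted p = 0.0533).

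The type I receptor and the co-receptor took other courses. Tgfbr1 had 12.2 and 13.6 CPM at day 0, 13.7 and 13.3 at day 3, 9.25 and 12.2 at day 7, and 24.4 and 20.2 CPM at day 21. Days 0, 3 and 7 had no call against each other, although with library totals alone day 7 was called lower than day 0 (log2 change -0.46, adjusted p = 0.0146). Day 21 was higher than day 0 by 0.81 ± 0.14 on the log2 scale (SE, adjusted p = 1.82e-05). Tgfbr3 had 15.4 and 13.97 CPM at day 0, 9.62 and 10.6 at day 3, 6.91 and 6.20 at day 7, and 4.10 and 5.52 CPM at day 21. It was the only member called lower than at day 0, at all 3 times, and it fell by 0.55, 1.15 and 1.59 on the log2 scale (SE 0.15, 0.17 and 0.18, adjusted p = 0.00458, 1.38e-06 and 1.49e-08). Its libraries did not overlap between successive times, although the step from day 7 to day 21 had no call (adjusted p = 0.0795). Without day 0 replicate 1, which shares reads with NE replicate 2, the day 3 call of Tgfbr3 was lost (adjusted p = 0.0612), and no other member call against day 0 was lost. With the spread shared over 14 libraries Tgfbr3 had no call at any of the 3 times (adjusted p = 0.808, 0.263 and 0.128).

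As a result the pair of signalling receptors changed in proportion. Per kb of exon, the ratio of Tgfbr2 to Tgfbr1 was 0.0184 and 0.0217 at day 0, 0.0113 and 0.0165 at day 3, 0.842 and 0.692 at day 7, and 1.36 and 1.63 at day 21. Only the day 21 libraries of this line held more type II than type I receptor transcript per kb. The ratio of Smad3 to Smad7 per kb was 0.122 and 0.0837 at day 0, 0.385 and 0.406 at day 3, 2.19 and 2.24 at day 7, and 1.81 and 1.58 at day 21. In the other cells this ratio was 4.12, 2.55 and 3.25 in Non-NE libraries and 0.595, 0.118 and 0.0347 in NE libraries.

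In the same line the 4 epithelial markers summed to 2976 to 3078 CPM at day 0 and 3012 to 3089 CPM at day 21. The 8 fibroblast markers summed to 6.20 to 6.84 CPM at day 0, with Lum, Col3a1 and Fap at 0, and 46.9 to 52.6 CPM at day 21. Most of the day 21 sum was Thy1 (mean 26.1 CPM) and Pdgfrb (16.1 CPM), while Col1a1 averaged 3.60 CPM and Col3a1 0.0969 CPM. In Non-NE cells the means were 0 CPM for Thy1, 468 for Pdgfrb, 9968 for Col1a1 and 3140 for Col3a1. The 6 neuroendocrine markers summed to 3502 to 3699 CPM at day 0, with Calca at 0, and 552 to 569 CPM at day 21. The 6 macrophage and blood markers summed to 6.85 to 7.31 CPM at day 0 and 113 to 136 CPM at day 21, with Ptprc and Emr1 at 0 at both times. Csf1r alone made up most of the day 21 sum, with a mean of 114.5 CPM at day 21 and 0 at day 0, while Cd68 had 8.51 CPM at day 21 and 2.14 at day 0, and Lyz2 1.25 CPM at day 21 and 4.89 at day 0. The 4 endothelial markers summed to at most 2.34 CPM in every group. The part of these marker genes in the member changes was not tested.

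The balance of the 3 TGF-beta isoforms changed with state and time. Per kb of exon, Tgfb2 made up 54.9%, 68.6% and 46.2% of the 3 ligand transcripts in Non-NE libraries and 0.386%, 0.410% and 0.680% in NE libraries. Tgfb3 was the leading isoform in every NE library and at every day, with 87.9%, 58.2% and 86.6% in NE libraries. In the YAP5SA line the share of Tgfb3 was 57.0% and 60.9% at day 0, 76.2% and 77.8% at day 3, 85.6% and 84.6% at day 7, and 48.3% and 51.4% at day 21. The share of Tgfb2 was 3.09% and 3.39% at day 7 and 28.2% and 24.0% at day 21, below every Non-NE library. The summed ligand level was 44.0, 230 and 140 CPM per kb in Non-NE libraries, 8.64, 13.8 and 8.12 in NE libraries, 13.7 and 13.9 at day 0, 33.5 and 31.3 at day 3, 61.4 and 54.9 at day 7, and 52.7 and 53.5 CPM per kb at day 21. The sum therefore stood near its day 7 level at day 21 while its make-up moved to Tgfb2 and Tgfb1.

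**Figure D3:**
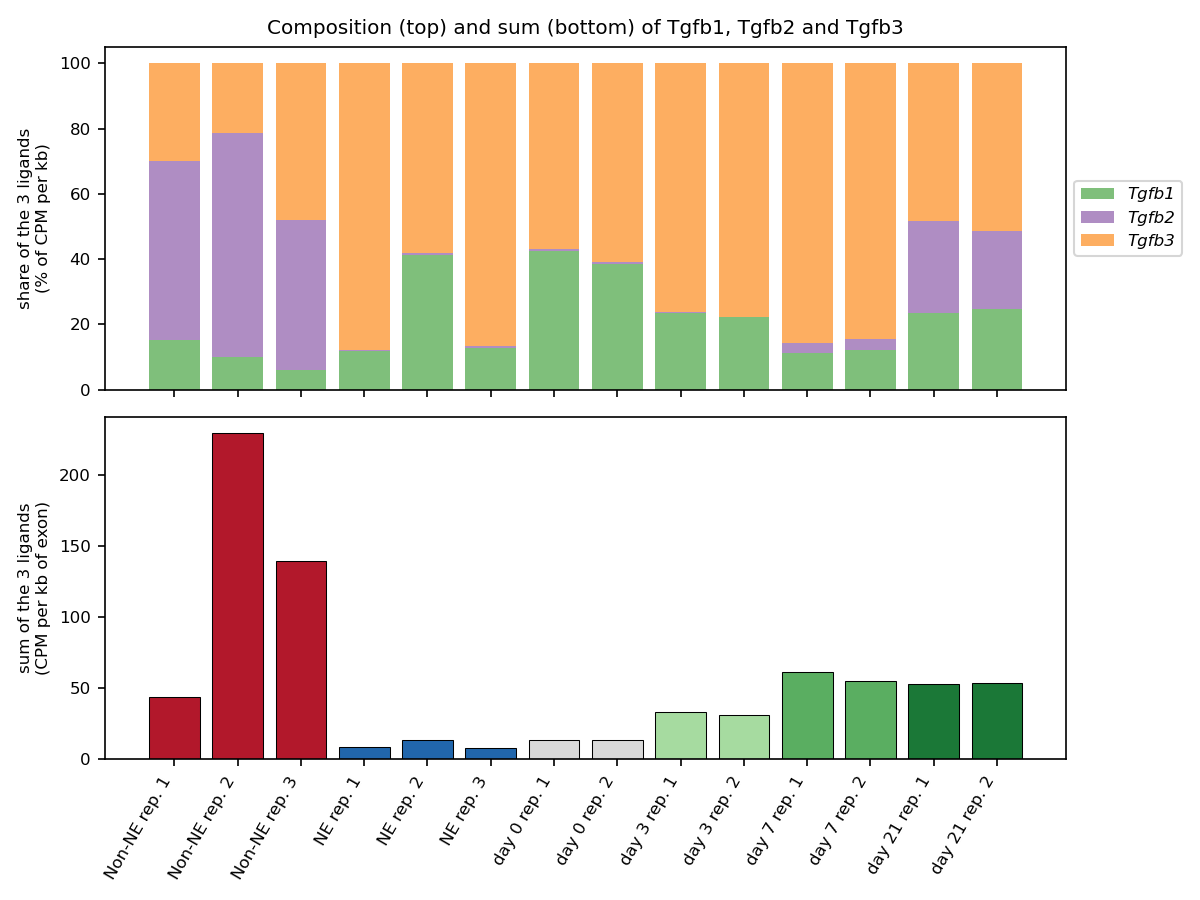
Share of Tgfb1, Tgfb2 and Tgfb3 in their summed CPM per kb of exon (top, percent) and that sum (bottom, CPM per kb), 1 bar per library. Tgfb2 takes 46.2% to 68.6% in Non-NE libraries and under 1% in NE libraries; the day 7 libraries are at 84.6% and 85.6% Tgfb3.

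Promoters were read from RefSeq for the members that were near 0 in NE cells and at day 0 and high later. For 7 of the 10 members, 9 promoter windows of 300 bases in GRCm38.p6 were searched, each 250 bases before to 50 after the start. No window of Tgfb3, Tgfbr3 or Smad7 was searched, so the motif results do not cover these members. The 3 below belong to Tgfb2 and Tgfbr2, which rose in the same step, and Inhba, which rose after them. They are on chr1:186705940-186706239 (minus strand), chr9:116175314-116175613 (minus strand) and chr13:16011601-16011900 (plus strand), and read 5′ to 3′ on the gene's strand, with capitals marking the motif CAGACA.
Tgfb2: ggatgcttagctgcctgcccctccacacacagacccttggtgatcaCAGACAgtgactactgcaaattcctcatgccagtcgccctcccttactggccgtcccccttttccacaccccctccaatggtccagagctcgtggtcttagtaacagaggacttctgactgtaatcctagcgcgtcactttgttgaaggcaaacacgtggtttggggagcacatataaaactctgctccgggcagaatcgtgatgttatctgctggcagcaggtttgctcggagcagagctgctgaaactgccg
Tgfbr2: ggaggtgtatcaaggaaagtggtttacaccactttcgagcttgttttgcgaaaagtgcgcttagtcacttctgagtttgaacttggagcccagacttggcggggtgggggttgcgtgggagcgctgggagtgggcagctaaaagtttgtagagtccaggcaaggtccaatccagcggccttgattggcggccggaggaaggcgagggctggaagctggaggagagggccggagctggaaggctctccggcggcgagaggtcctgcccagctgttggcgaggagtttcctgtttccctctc
Inhba: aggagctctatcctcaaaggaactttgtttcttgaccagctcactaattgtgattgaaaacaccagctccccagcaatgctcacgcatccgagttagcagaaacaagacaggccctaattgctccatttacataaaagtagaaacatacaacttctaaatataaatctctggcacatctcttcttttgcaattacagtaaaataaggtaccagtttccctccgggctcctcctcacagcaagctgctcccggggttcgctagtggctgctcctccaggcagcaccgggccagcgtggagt
The motifs searched on both strands were GGAATG (the core bound by TEAD factors, which carry YAP), GTCTAGAC (the palindromic SMAD element), CAGACA (a SMAD-binding hexamer) and TGANTCA (the AP-1 element). GTCTAGAC and CAGACA share letters but were counted apart. Of 32851 mouse promoter windows of this length 14.7% held GGAATG, 0.213% GTCTAGAC, 21.04% CAGACA and 7.81% TGANTCA. In the 9 member windows only CAGACA was found: at 204 bases before the start of Tgfb2, at 203 before the second start of Tgfbr1, and in the opposite orientation at 149 and 98 before the second start of Ltbp1. The letters of the other motifs are not in these windows, which says nothing of binding elsewhere or of the member promoters not searched. GC content was 54.3%, 59.0% and 47.7% in the Tgfb2, Tgfbr2 and Inhba windows, against a median of 52.7% over all windows.

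The genes lie on different chromosomes except for one pair. In GRCm38 with GENCODE M21, Tgfbr2 spans chr9:116084293-116175360 and Smad3 chr9:63646767-63757994, both on the minus strand and far apart. Tgfb1 spans chr7:25687002-25705077 (plus), Tgfb2 chr1:186622792-186705989 (minus), Tgfb3 chr12:86056745-86079041 (minus) and Inhba chr13:16011851-16031621 (plus). Ltbp1 spans chr17:75005568-75392512 (plus), Tgfbr1 chr4:47353222-47414931 (plus), Tgfbr3 chr5:107106570-107289629 (minus) and Smad7 chr18:75367529-75395935 (plus). Tgfb3 and the opposite-strand gene Ttll5 overlap in their spans but share 0 exon bases. Whether counting used strand is not given in the sources used here, so reads of overlapping antisense genes cannot be told apart from those of a member.

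How far the day 21 cells came toward Non-NE cells was compared in a fit of 13 libraries without NE replicate 2. At day 21, 4 members were called lower than in Non-NE cells and 0 higher, beside 24.5% and 30.8% of the 14820 genes tested (55.3% called). DESeq2 and limma-voom gave 0 higher as well, and 0 were higher at an unadjusted p under 0.05. The median log2 change was -1.35 over the members and 0.06 over all genes. Ltbp1 had 13.5 and 15.3 CPM at day 21 and 665 to 1309 CPM in Non-NE cells, a log2 change of -5.94 ± 0.42 (SE, adjusted p = 1.96e-06). Tgfbr2 had 41.4 and 41.3 CPM at day 21 and 478 to 1153 CPM in Non-NE cells, a log2 change of -4.12 ± 0.39 (SE, adjusted p = 1.45e-05). Both genes lay well below every Non-NE library.

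Tgfb2 was lower at day 21 as well, by a log2 change of -2.56 ± 0.65 (SE, adjusted p = 0.00740), with 86.1 and 74.5 CPM at day 21 under the lowest Non-NE library of 140 CPM. Its call was lost without day 21 replicate 1 (adjusted p = 0.0520) or replicate 2 (adjusted p = 0.0657). Tgfbr3 was called lower (log2 change -2.03 ± 0.74, SE, adjusted p = 0.0385) with overlapping libraries, since Non-NE replicate 2 had 5.50 CPM. Its call was lost without Non-NE replicate 1 (log2 change -0.88, adjusted p = 0.111), without either day 21 library (adjusted p = 0.185 and 0.122), under limma-voom (adjusted p = 0.129), with library totals alone (adjusted p = 0.0546), without a count filter (adjusted p = 0.0529), and without any library at days 0, 3 or 7 (adjusted p of 0.0559 to 0.0569).

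For the other 6 members no difference was called. Smad3 had a log2 change of -0.28 ± 0.66 (adjusted p = 0.740), Smad7 0.55 ± 0.47 (adjusted p = 0.346) and Tgfb1 0.01 ± 0.42 (adjusted p = 0.981), all with overlapping libraries (SE after each). Inhba had 35.2 and 32.4 CPM at day 21 against 24.3, 283 and 97.8 CPM in Non-NE cells, within the Non-NE range, with a log2 change of -2.00 ± 0.84 (SE, adjusted p = 0.0753), which DESeq2 called (adjusted p = 0.0376). Without Non-NE replicate 1 Inhba, Tgfb3 and Tgfbr1 were called lower (adjusted p = 0.00311, 0.000202 and 0.0284), and without Non-NE replicate 2 Tgfb1 was called higher (adjusted p = 0.00222). A missing call does not show that the levels are alike.

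The signed log2 changes were also compared, as the change from day 0 to day 21 minus the difference of Non-NE from NE cells. The result was above 0 for 1 member and below 0 for 3, beside 21.2% and 11.6% of all genes (32.8% called). Tgfbr1 was the one above 0, at 1.71 ± 0.43 on the log2 scale (SE, adjusted p = 0.0125), with a log2 change of 0.81 at day 21 against day 0 and of -0.94, without a call, in Non-NE against NE cells without NE replicate 2. Tgfbr2 (-5.16 ± 1.22), Ltbp1 (-4.31 ± 1.33) and Tgfb1 (-2.43 ± 0.67) were below 0 (SE, adjusted p = 0.00962, 0.0318 and 0.0195). For Smad7 the difference was 0.03 and for Smad3 1.21 on the log2 scale, with no call (adjusted p = 1.00 and 0.479).

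By mean level, day 21 stood next below Non-NE cells for Tgfb2, Tgfb3, Inhba, Ltbp1, Tgfbr1, Tgfbr2 and Smad3, and above Non-NE cells for Tgfb1 and Smad7. In that order Non-NE and day 21 libraries overlapped for Tgfb3, Inhba and Smad3 and not for Tgfb2, Ltbp1, Tgfbr1 or Tgfbr2. The highest mean of Tgfb3 was at day 7 (167 ± 15 CPM, SD, n = 2), which overlapped Non-NE cells (146 ± 93 CPM, SD, n = 3). The highest mean of Tgfbr1 was in NE cells and the lowest at day 7. For Tgfbr3 the order ran from Non-NE cells through day 0, NE cells, day 3 and day 7 to day 21, with overlap between each neighbour down to day 3.

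The genes whose levels followed Tgfbr2 and Smad7 most closely were ranked over the 13 libraries by Pearson's r of log2(CPM + 1), among 11602 genes with at least 10 CPM in some group. For Tgfbr2 these were S100a6 (r = 0.995), Rnd3 (0.995), Rela (0.993), Procr (0.992) and Myo1d (0.991). S100a6, a calcium-binding protein gene, had means of 792 CPM in Non-NE cells, 0.142 in NE cells and 74.4 CPM at day 21. Rela, an NF-kappa-B subunit gene, moved over a far smaller range, with 186 CPM in Non-NE cells, 49.1 in NE cells and 98.4 CPM at day 21. For Smad7 they were Creg1 (0.952), Tnnt2 (0.937), Pbxip1 (0.935), Nfil3 (0.931) and Rassf9 (0.930). The 13 points fall into 6 groups, so these values describe the groups and carry no test.

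Around the members, most listed genes of TGF-beta latency and activation were higher in Non-NE cells and at day 21. Beside every list count below, 20.0% of all genes tested were called higher and 22.8% lower in Non-NE against NE cells. Against day 0 these shares were 26.2% and 22.4% at day 3, 37.2% and 33.8% at day 7, and 37.7% and 34.0% at day 21. A list gene near 0 in NE cells or at day 0 passed the count filter through other groups alone, so it could hardly be called lower. Of 17 listed latency and activation genes, 1 of them a member, 10 of 14 tested were called higher and 0 lower in Non-NE cells (median log2 change 5.09), and 14 of 15 tested were higher and 1 lower at day 21 against day 0 (median 2.88). At day 3 the counts were 7 higher and 1 lower, and at day 7 they were 12 and 1. Thbs1, whose product thrombospondin 1 can activate latent TGF-beta, averaged 5548 ± 3692 CPM in Non-NE cells and 58.5 ± 16 CPM in NE cells (SD, n = 3 each). It averaged 53.1 ± 8.5 CPM at day 0, 380 ± 77 at day 3, 1606 ± 27.5 at day 7 and 1725 ± 42 CPM at day 21 (SD, n = 2 each). The rise was called in both comparisons, with log2 changes of 6.53 ± 0.67 in Non-NE cells and 5.04 ± 0.13 at day 21 (SE, adjusted p = 0.000484 and 6.49e-20). Mmp14, a membrane protease gene, had a log2 change of 8.79 ± 0.55 in Non-NE cells and 6.02 ± 0.19 at day 21 (SE, adjusted p = 6.59e-05 and 1.63e-19). Itgb8, an integrin subunit gene, averaged 72.5 ± 58 CPM in Non-NE cells and 0.370 ± 0.29 CPM in NE cells (SD, n = 3 each), a log2 change of 7.51 ± 1.00 (SE, adjusted p = 0.00143).

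The integrin subunit gene Itgb6 was near 0 in both cell states and rose in the day course. Its product pairs with the alpha V subunit and releases active TGF-beta on epithelia. It averaged 0.259 ± 0.32 CPM in Non-NE cells and 0.716 ± 0.37 CPM in NE cells (SD, n = 3 each), too low to be tested there. In the YAP5SA line it averaged 0.791 ± 0.059 CPM at day 0, 24.0 ± 2.7 at day 3, 89.4 ± 2.2 at day 7 and 182 ± 3.7 CPM at day 21 (SD, n = 2 each). It rose at every step, to a log2 change of 7.85 ± 0.15 at day 21 (SE, adjusted p = 1.25e-23). At day 21 it was higher than in Non-NE cells by 9.41 ± 0.50 on the log2 scale (SE, adjusted p = 2.71e-07), where 2 of the 17 latency and activation genes were called higher and 8 lower (median -2.04). Itgav, the alpha V subunit gene, averaged 56.3 ± 5.0 CPM at day 21 and 0.139 ± 0.065 CPM at day 0 (SD, n = 2 each), with a ratio that rests on 3 reads at day 0.

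The wider receptor list held no common direction. Of 14 listed receptors, 3 of them members, 2 of 11 tested were called higher and 3 lower in Non-NE cells (median log2 change 0.29), and 5 were higher and 4 lower at day 21 against day 0 (median 0.20). The 3 lower in Non-NE cells were activin receptors. Acvr2b averaged 0.403 ± 0.27 CPM in Non-NE cells and 6.25 ± 1.5 CPM in NE cells (SD, n = 3 each), a log2 change of -4.00 ± 0.63 (SE, adjusted p = 0.00262), and Acvr1b and Acvr2a fell by 1.63 ± 0.37 and 1.45 ± 0.23 (SE, adjusted p = 0.0114 and 0.00268). At day 21 Acvr2b stood at 6.35 ± 1.8 CPM, against 5.59 ± 0.21 CPM at day 0 (SD, n = 2 each), with no call (adjusted p = 0.391).

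Of 14 listed family ligands, 4 of them members, 7 were tested in Non-NE against NE cells, with 4 called higher and 1 lower (median 2.24), and at day 21 5 of 8 were higher and 2 lower (median 1.00). The lower one in both was Inha, the inhibin alpha chain that pairs with INHBA chains to form an activin antagonist. It averaged 6.95 ± 1.7 CPM in Non-NE cells and 83.6 ± 71 CPM in NE cells (SD, n = 3 each), a log2 change of -3.63 ± 0.69 (SE, adjusted p = 0.00588). It fell at every step of the course, with 178 ± 21 CPM at day 0, 67.1 ± 6.9 at day 3, 31.2 ± 0.86 at day 7 and 18.4 ± 2.7 CPM at day 21 (SD, n = 2 each), to a log2 change of -3.26 ± 0.11 (SE, adjusted p = 5.96e-19). Inhba and Inha thus moved in opposite directions in both comparisons.

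Of the 8 SMAD genes, 2 of them members, all were tested: 3 were higher and 0 lower in Non-NE cells (median 0.12), and 4 higher and 2 lower at day 21 (median 0.29). Smad2, the other transducer of TGF-beta, averaged 81.0 ± 4.9 CPM in Non-NE cells and 72.7 ± 11 CPM in NE cells (SD, n = 3 each), with no call (log2 change 0.11 ± 0.19, SE, adjusted p = 0.664). Smad6, the inhibitory SMAD of the BMP branch, averaged 25.5 ± 3.2 CPM in Non-NE cells and 3.85 ± 2.4 CPM in NE cells (SD, n = 3 each), a log2 change of 2.67 ± 0.48 (SE, adjusted p = 0.00467). At day 21 Smad6 averaged 7.54 ± 0.93 CPM, against 6.43 ± 0.074 CPM at day 0 (SD, n = 2 each), with no call (adjusted p = 0.218).

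Of 21 feedback inhibitors and SMAD regulators, 1 of them a member, 7 of 18 tested were higher and 2 lower in Non-NE cells (median 0.77), and 12 higher and 3 lower at day 21 (median 0.57). Without NE replicate 2 the counts in Non-NE cells were 4 higher and 1 lower for this list, 5 and 1 for ligands, 10 and 0 for latency genes, 2 and 3 for receptors, 3 and 0 for SMADs, 15 and 1 for targets and 5 and 2 for BMP genes. Without day 0 replicate 1 the counts at day 21 were 12 and 2 for this list, 5 and 2 for ligands, 13 and 1 for latency genes, 4 and 4 for receptors, 4 and 2 for SMADs, 16 and 3 for targets and 6 and 6 for BMP genes. At days 3 and 7 without it, latency genes had 6 and 1, then 12 and 1, and targets 7 and 2, then 9 and 5. Nedd4l, a ubiquitin ligase gene that limits SMAD2 and SMAD3, averaged 88.0 ± 2.3 CPM in Non-NE cells and 6.67 ± 6.4 CPM in NE cells (SD, n = 3 each), a log2 change of 3.67 ± 0.72 (SE, adjusted p = 0.00659). In the course it averaged 4.42 ± 0.29 CPM at day 0, 22.2 ± 5.3 at day 3, 152 ± 0.43 at day 7 and 186 ± 5.9 CPM at day 21 (SD, n = 2 each). Bambi, a pseudoreceptor gene, was lower in both, by a log2 change of -2.98 ± 0.54 in Non-NE cells (SE, adjusted p = 0.00469) and of -1.43 ± 0.11 at day 21 (SE, adjusted p = 9.52e-12).

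Pmepa1, a target that restrains SMAD signalling, averaged 438 ± 406 CPM in Non-NE cells and 34.2 ± 37 CPM in NE cells (SD, n = 3 each), with overlapping libraries. Its call (log2 change 3.64 ± 1.12, SE, adjusted p = 0.0369) was lost without NE replicate 1, NE replicate 2, Non-NE replicate 2 or Non-NE replicate 3, at adjusted p of 0.0673 to 0.106. In the course Pmepa1 averaged 10.8 ± 1.3 CPM at day 0, 6.57 ± 0.46 at day 3, 4.32 ± 0.072 at day 7 and 16.1 ± 0.081 CPM at day 21 (SD, n = 2 each). It was lower than at day 0 at days 3 and 7 and higher at day 21, with log2 changes of -0.72 ± 0.17, -1.30 ± 0.19 and 0.61 ± 0.15 (SE, adjusted p = 0.000922, 9.10e-07 and 0.000661). With the spread shared over 14 libraries Pmepa1 had no call at any of these times (adjusted p = 0.842, 0.411 and 0.705).

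**Figure D4:**
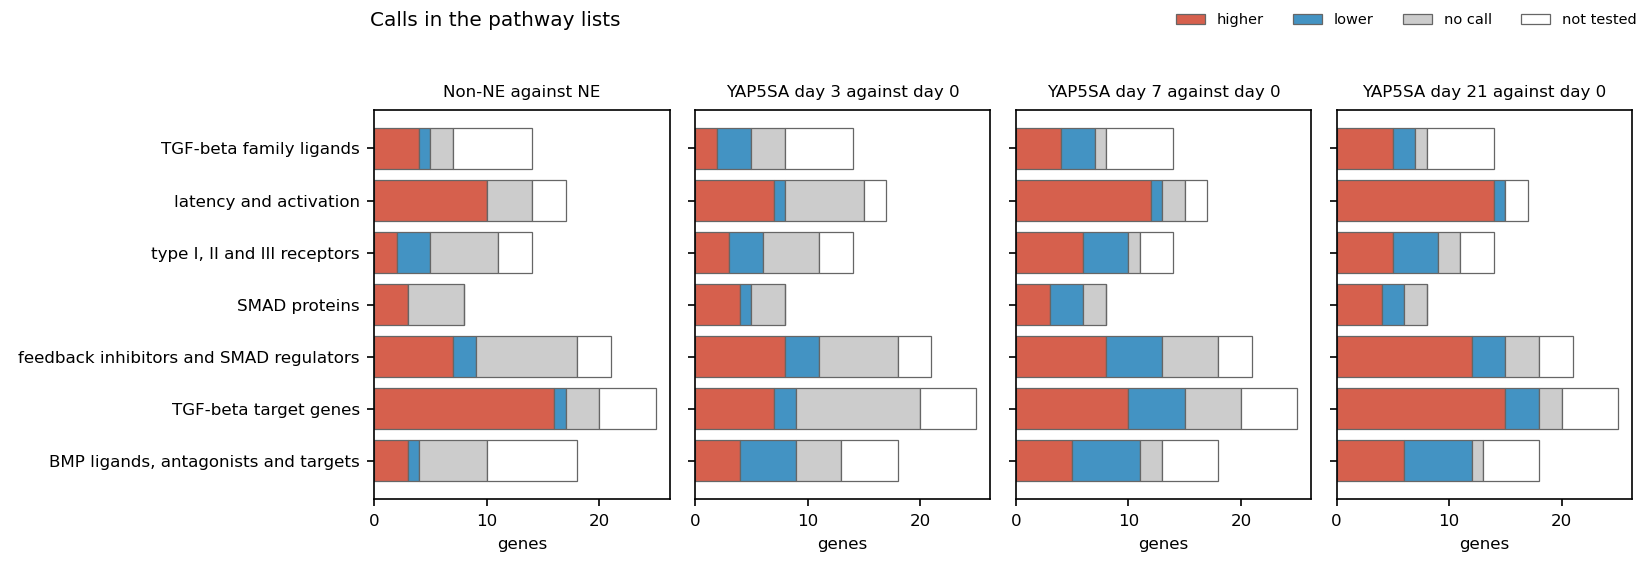
Genes called higher, called lower, without a call and not tested in 7 pathway lists, for Non-NE against NE cells and YAP5SA days 3, 7 and 21 against day 0; bars count genes. Latency and activation genes and TGF-beta targets are mostly called higher in Non-NE cells (10 and 16 genes) and at day 21 (14 and 15 genes). Receptors and BMP genes are called in both directions. Of all genes tested, 20.0% are called higher in Non-NE cells and 37.7% at day 21.

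The known targets of the pathway were mostly higher in both comparisons. Of 25 listed targets, 1 of them a member, 16 of 20 tested were called higher and 1 lower in Non-NE cells, beside 20.0% and 22.8% of all genes. The median log2 change was 7.07, or 6.73 with genes near 0 at their bound or ratio. Of the 20 tested, 5 had 0 to 3 reads in NE cells, so their direction was fixed once they were tested. Col1a2, Snai1, Snai2 and Tagln, with 15, 10, 12 and 27 reads in NE cells, could hardly be called lower either. At day 21, 5 of the 20 tested likewise had 0 to 3 reads at day 0. Snai1 and Col1a1 had 4 and 8 reads at day 0, so the same limit holds for them. At day 3, 7 were higher and 2 lower (median 0.71), at day 7, 10 and 5 (median 1.03), and at day 21, 15 and 3 (median 2.55). Against Non-NE cells, 3 of the 25 targets were higher at day 21 and 11 lower (median -3.27). Col1a2, a fibrillar collagen gene, averaged 3781 ± 1424 CPM in Non-NE cells and 0.527 ± 0.29 CPM in NE cells (SD, n = 3 each), a log2 change of 12.74 ± 0.62 (SE, adjusted p = 3.09e-05), but 0.387 ± 0.41 CPM at day 21 and 0.234 ± 0.20 CPM at day 0 (SD, n = 2 each). Many of these genes are also fibroblast or YAP target genes, and which pathway moved them was not tested. Ctgf, a matricellular protein gene induced by both YAP and TGF-beta, had 0 counts in NE cells and at day 0, and was at least 10527-fold higher in Non-NE cells and at least 3797-fold higher at day 21. Fn1, the fibronectin gene, averaged 10430 ± 5487 CPM in Non-NE cells and 1.26 ± 0.90 CPM in NE cells (SD, n = 3 each), a log2 change of 12.96 ± 1.05 (SE, adjusted p = 0.000194). At day 21 Fn1 averaged 70.7 ± 8.8 CPM, against 0.140 ± 0.067 CPM at day 0 (SD, n = 2 each), and was lower than in Non-NE cells by a log2 change of -7.20 ± 0.63 (SE, adjusted p = 9.39e-06).

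**Figure D5:**
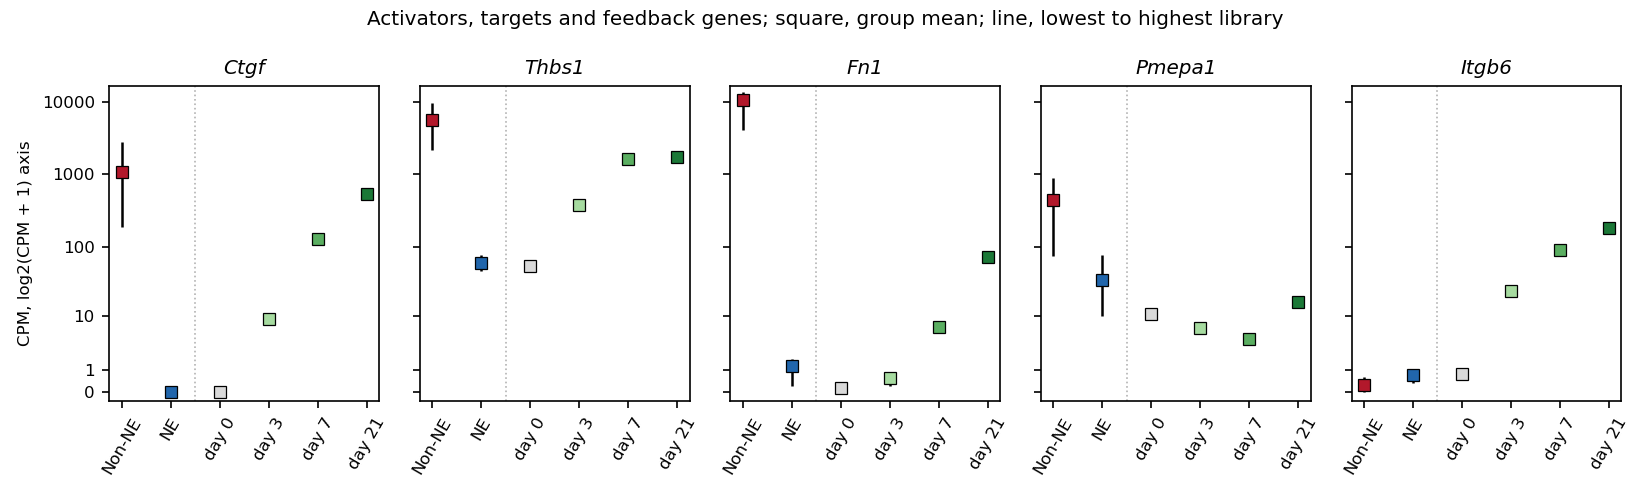
Levels of 5 genes around the members by group, in CPM on a log2(CPM + 1) axis; squares are group means and lines run from the lowest to the highest library. Ctgf, Thbs1 and Fn1 rise over days 0 to 21, the highest day mean of Pmepa1 is 16.1 CPM where the lowest Non-NE library has 74.1 CPM, and Itgb6 has its highest mean at day 21, at 182 CPM.

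The BMP branch showed both directions. Of 18 listed BMP ligands, antagonists and targets, 3 of 10 tested were higher and 1 lower in Non-NE cells (median 1.04), and 6 of 13 were higher and 6 lower at day 21 (median -0.14). Bmp4, a ligand gene, averaged 91.0 ± 53 CPM in Non-NE cells and 0.0322 ± 0.056 CPM in NE cells (SD, n = 3 each), and 112 ± 14 CPM at day 21 against 0.0463 ± 0.065 CPM at day 0 (SD, n = 2 each). Nog, the gene of the BMP antagonist noggin, had 0 counts in NE cells and at day 0, and averaged 30.8 ± 33 CPM in Non-NE cells (SD, n = 3) and 29.8 ± 2.0 CPM at day 21 (SD, n = 2). Id4, a BMP target in many cells, was lower in both, by a log2 change of -3.87 ± 0.80 in Non-NE cells and of -2.03 ± 0.10 at day 21 (SE, adjusted p = 0.00830 and 8.48e-16).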

How the data were processed

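Poly(A) RNA of 14 libraries in 6 groups was measured as raw read counts per gene, as deposited by the authors in 1 table. Reads were processed with STAR 2.4.2, featureCounts and mm10, per the submitters' processing notes; the annotation and the strand setting are not given in the sources used here. Counts were fitted with edgeR 4.0.16 (TMM, filterByExpr, robust quasi-likelihood F test, Benjamini-Hochberg adjustment over all genes tested) in R 4.3.3. The 6 Non-NE and NE libraries and the 8 YAP5SA libraries were fitted apart, and 13 libraries without NE replicate 2 together where the sets were compared. Alternatives were DESeq2 1.42.0 size factors and its Wald test, limma 3.58.1 voom, library totals only, no count filter, a 1 CPM filter, all 14 libraries fitted at once, a block for the replicate number, and the omission of each library in turn. The test scripts were first tested on simulated data. For Non-NE against NE cells, 1 of 97 simulated 2-fold changes and 38 of 98 4-fold changes were recovered. For day 21 against day 0, 83 of 99 and 94 of 97 were recovered. A missing call in Non-NE against NE cells therefore says little, and call counts of these comparisons are not alike.

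The members and lists were chosen with earlier results of these data known. The rule for naming list genes allowed, per list and comparison, up to 4 called genes with the largest change and at least 5 CPM in the higher group. Not all of these are named, and which were left out was decided with their values known. Values of a named gene in other comparisons, and Smad2, stand outside that rule. A fold against a group with 0 counts was computed against 3 counts over that group, and one against 1 to 3 counts has an exact 95% interval. Intervals and floors cover counting error only. Levels per kb used exon lengths of GENCODE M21. Same-numbered libraries did not deviate together (correlations of -0.0143 to 0.0454 over 3 pairs of Non-NE and NE cells, and -0.114 to 0.0450 over 12 pairs of days), so the numbers were not taken as pairs. An allele of the genotype and a listed target gene are not reported here.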

Additional observations from a re-analysis of the deposited data

Results flagged for a closer look

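For 4 members the change from day 0 to day 21 differed from the difference of Non-NE from NE cells in a test of that difference (edgeR, Benjamini-Hochberg adjustment, 13 libraries). For Tgfb1 the difference was -2.43 on the log2 scale. Its call was lost without NE replicate 1 (adjusted p = 0.0539), NE replicate 3 (0.0578), day 0 replicate 1 (0.0583) or either day 21 library (0.0675 and 0.0626), and under limma-voom (0.0527).

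For Ltbp1 the difference was -4.31. Its call was lost without NE replicate 3 (-3.79, adjusted p = 0.0646), day 0 replicate 1 (-3.39, adjusted p = 0.344) or either day 21 library (0.0558 and 0.0516). For Tgfbr1 the difference was 1.71, lost without day 0 replicate 1 (adjusted p = 0.0579) or day 21 replicate 1 (0.0521). For Tgfbr2 the difference was -5.16, lost without day 0 replicate 2 (-4.95, adjusted p = 0.0630). With NE replicate 2 added in one fit of all 14 libraries, the difference was -1.10 for Tgfb1 (adjusted p = 0.436) and 1.26 for Tgfbr1 (adjusted p = 0.258).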

How the results depend on the processing

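Over 1360 pairs of a member value and an alternative, 1253 kept direction and side of the threshold, 63 lost a call, 20 gained one and 24 changed sign, and the causes were not tested. With all 14 libraries in one fit, the genes called were 8997 for Non-NE against NE, 1041, 4589 and 4586 for days 3, 7 and 21 against day 0, 1281 for day 7 against day 3 and 515 for day 21 against day 7. The members called there were 0 at day 3 (3 at an unadjusted p under 0.05), 5 at day 7, 2 for day 7 against day 3, 4 for day 21 against day 7 and 2 for the difference of changes. Leaving out 1 library at a time gave 6 to 8 members called for Non-NE against NE (4483 to 5570 genes), 5 to 6, 8 to 9 and 10 to 10 for days 3, 7 and 21 (5341 to 7331, 8910 to 10319 and 9112 to 10291 genes), 2 to 6 for day 21 against Non-NE (6004 to 8990 genes) and 1 to 5 for the difference of changes (3170 to 6102 genes). The replicate block called 8, 6, 9, 10, 4 and 4 members in the same order, beside 4888, 6707, 9874, 9942, 8385 and 5143 genes. Under it Tgfb1 was called in Non-NE against NE (adjusted p = 0.00414), and in day 21 against Non-NE Tgfb1 was -0.068 on the log2 scale, Tgfbr1 gained its call (-0.74, adjusted p = 0.0486) and Tgfbr3 lost it (-1.86, adjusted p = 0.0894). The block changed no other member call.

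The values that changed sign had no call with all their libraries. With library totals only, day 3 against day 0 was -0.048 for Tgfb2 and -0.0035 for Tgfbr1, and day 7 against day 3 was -0.037 for Smad7. Under limma-voom, Tgfb2 at day 3 was -0.49. In the difference of changes, Inhba was -0.41 (DESeq2), -0.53 (limma-voom) and -0.12 (all 14 libraries), and Smad3 was -0.11 (limma-voom). Without 1 library, Non-NE against NE was -0.94 to 0.11 for Tgfbr1 and -0.60 to 1.01 for Tgfbr3, day 3 against day 0 was -2.06 to 0.87 for Tgfb2 and -0.019 to 0.14 for Tgfbr1, and day 21 against Non-NE was -0.30 to 0.76 for Tgfb1. The difference of changes was -1.99 to 1.44 for Inhba, -2.92 to 2.14 for Smad3 and -0.60 to 0.45 for Smad7. The -1.99 for Inhba came from the fit without NE replicate 3. The NE and day 0 libraries left in that fit had 0 Inhba reads, so this value could not be estimated.

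With library totals only, the median log2 change of all genes was -0.28 for Non-NE against NE, where it was -0.02 with TMM. Genes called higher and lower were 1930 and 3757, against 2594 and 2960 with TMM. For day 7 against day 0 the median was -0.17, where it was 0.03 with TMM (4149 and 6116, against 5208 and 4724). The splits for day 7 against day 3 were 3140 and 5076, against 4128 and 3657, and those for the difference of changes 3602 and 1203, against 3149 and 1715. Genes with 1 to 10 reads in a library limit what the early days and NE cells can show.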
